A study of Mus musculus with 6 samples.

Results

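Snhg12, Cnksr1, Catsper4, Paqr7 and Ece1 are genes of the distal part of mouse chromosome 4, the chromosome that also carries Tdrd7, and they were chosen by their measured difference between Tdrd7 null and Tdrd7 heterozygous lenses on these arrays. All probes annotated to these symbols were taken, which gave 5 genes of 19057 named on the array and 6 probes of 45281. Snhg12, Cnksr1, Catsper4 and Paqr7 each had 1 probe and Ece1 had 2. Because this same contrast chose the genes, their differences are a description and carry no test.

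Total RNA of mouse lenses at postnatal day 30 was hybridised to 6 Illumina bead arrays, 3 from Tdrd7 heterozygous and 3 from Tdrd7 null animals, to ask which lens transcripts differ without the Tudor domain protein of RNA granules that Tdrd7 encodes. The labels give every sample a background mixed from C57BL/6J and C3A.Blia. All samples therefore carried at least 1 mutant Tdrd7 allele, and no wild-type lens was among them. Whether each sample came from its own animal is not in the labels, so errors and p-values cover only the spread among these samples, possibly a technical one. In table order, arrays 1 to 3 are heterozygous and arrays 4 to 6 null.

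The 5 genes have unrelated known roles. Snhg12 is a host gene whose introns are processed into small nucleolar RNAs, which guide chemical modification of other RNAs, and its spliced product is a long non-coding RNA. Cnksr1 encodes CNK1, a scaffold that brings components of Ras signalling together at the membrane, and Catsper4 encodes a pore subunit of the CatSper calcium channel of the sperm tail. Paqr7 encodes a membrane progestin receptor, and Ece1 the membrane metallopeptidase that cuts inactive big endothelins to active peptides. As general background on mouse crosses, a mutated gene is inherited with the stretch of chromosome around it, so that mutant and other animals of a mixed background can differ in the strain alleles of linked genes as well as in the mutation. An allele can differ in its expression, or in the stretch that an array probe binds.

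The start regions of Snhg12, Cnksr1 and Catsper4 are shown because these 3 genes had the largest differences among the members lower in null, and because 2 of them, Cnksr1 and Catsper4, are next to each other. RefSeq windows on build GRCm38.p6 were available for all 5 genes, 9 windows in all, each of 250 bases before the annotated start and the first 20 bases of the transcript. Capitals mark matches on either strand to 5 motifs. These are the TATA box (TATAAA, or in its other searched form TATATAA), the box named CCAAT after its letters, the E-box (searched as CACGTG), the GC box (searched as GGGCGG) and the cyclic AMP response element (searched as TGACGTCA). The motifs searched do not overlap one another in these windows. The windows are at chr4:132308428-132308697 on the plus strand for Snhg12, chr4:134238380-134238649 on the minus strand for Cnksr1 and chr4:134227364-134227633 on the minus strand for Catsper4.
Snhg12: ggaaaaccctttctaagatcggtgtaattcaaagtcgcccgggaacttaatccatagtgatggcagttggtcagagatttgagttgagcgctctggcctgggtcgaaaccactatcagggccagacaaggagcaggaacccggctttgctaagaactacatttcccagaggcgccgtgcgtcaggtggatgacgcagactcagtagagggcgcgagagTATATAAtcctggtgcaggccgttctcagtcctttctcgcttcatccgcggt
Cnksr1: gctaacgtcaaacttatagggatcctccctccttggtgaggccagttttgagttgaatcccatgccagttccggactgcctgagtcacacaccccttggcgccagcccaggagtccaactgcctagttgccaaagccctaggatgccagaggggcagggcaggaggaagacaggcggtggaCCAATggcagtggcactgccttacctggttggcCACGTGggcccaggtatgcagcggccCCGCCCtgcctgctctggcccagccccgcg
Catsper4: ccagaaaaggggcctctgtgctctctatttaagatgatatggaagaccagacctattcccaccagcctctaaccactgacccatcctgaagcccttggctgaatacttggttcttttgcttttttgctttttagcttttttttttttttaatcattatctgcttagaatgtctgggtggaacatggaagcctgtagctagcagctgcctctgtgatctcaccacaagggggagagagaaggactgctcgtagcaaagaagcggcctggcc
The Snhg12 window held 16 CpG dinucleotides and 1 TATA match, a kind of match found in 14.3% of 32851 RefSeq windows of this length. The Cnksr1 window held 9 CpG dinucleotides with 1 match each to the CCAAT box (35.4% of all windows), the E-box (6.57%) and the GC box (34.1%). The Catsper4 window held 2 CpG dinucleotides and none of the searched letters, against a median of 6 CpG dinucleotides over all windows. None of the 3 held the cyclic AMP response element, which 1.73% of all windows hold. The start windows thus shared no searched motif among the 3 genes. A match or its absence describes the letters of the window only. No strain sequence was used here, so these are reference letters and do not show which alleles the animals carried.

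Tdrd7 followed its labels. Its log2 intensity was 13.99 ± 0.22 (SD, n = 3) in heterozygous and 10.11 ± 0.43 (n = 3) in null lenses, and it fell by 3.88 on the log2 scale with an SE of 0.26, or 14.7-fold (limma with Benjamini-Hochberg adjustment, adjusted p = 0.00139). The position of its probe against the mutated site is not known here. Detected probes numbered 12655 on heterozygous array 2 and 16204 on null array 5, the lowest and highest of the 6 arrays. These 2 arrays stood apart from the rest, heterozygous array 2 along the first principal component (42.9% of the variance) and null array 5 along the second (31.5%). Lens markers, mostly crystallins and fibre-cell membrane proteins, were measured for 17 of 20 listed genes. Of these, 6 were higher and 11 lower in null with a median difference of −0.04, and 0 passed the test. Many stood at very high log2 intensities, such as Crybb2 with means of 15.29 in heterozygous and 15.38 in null lenses. The same few normalized values recur there across genes and arrays, so this median says little about lens content.

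Of the 5 member probes tested, 4 were lower in null lenses and 1, Paqr7, was higher. In all 5 the null and heterozygous values did not overlap, and the same held for the deposited intensities before any normalization. For Ece1 the deposited intensities were only narrowly apart, at 197 on heterozygous array 2 and 192 on null array 5. Groups did not overlap in 15.3% of the 14902 tested probes, 7.86% of them lower and 7.43% higher in null. An adjusted p under 0.05 was reached by 3 of the 5 (Snhg12, Cnksr1 and Catsper4), against 0.174% of all tested probes, or 0.127% counted as lower in null. Nothing is read from these member counts, since the difference chose the genes. In whole lenses, fewer cells of a type and less RNA per cell cannot be told apart.

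Snhg12 stood at log2 intensities of 12.01, 12.58 and 12.22 in the heterozygous group (arrays 1 to 3) against 9.77, 9.99 and 9.24 in the null group (arrays 4 to 6). Every null array was far below every heterozygous array, and the closest pair was 2.02 apart, the widest such gap of the 5 genes. The means were 12.27 ± 0.29 (SD, n = 3) and 9.67 ± 0.38 (n = 3), a difference of −2.60 ± 0.26 (SE), or 6.07-fold lower in null. The deposited intensities were 5030, 4943 and 4122 against 1044, 1312 and 648, which kept the groups apart but not the order of the heterozygous arrays. The Snhg12 probe carries no transcript accession in the annotation, so the exon it reads is not given here. RefSeq places 4 small nucleolar RNA genes, Snora16a, Snora44, Snora61 and Snord99, inside Snhg12, and these are processed from the host transcript. No probe of them was used here.

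Cnksr1 was lower in null lenses. Its log2 intensities were 7.33, 8.74 and 8.00 in the heterozygous group against 4.69, 5.63 and 4.54 in the null group. The groups were 1.70 apart at their closest, although the heterozygous values themselves ranged over 1.41. The means were 8.02 ± 0.70 (SD, n = 3) and 4.95 ± 0.59 (n = 3), a difference of −3.07 ± 0.40 (SE), or 8.41-fold. The probe was above background on 3 of 3 heterozygous arrays but on 1 of 3 null arrays, with detection p-values of 0.0534, 0 and 0.135 on null arrays 4, 5 and 6. The size of the Cnksr1 difference therefore depends on how background is removed, and it was −1.97 with no background correction, where Snhg12 was at −2.56.

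Catsper4 was above background on all 6 arrays of this somatic tissue. Its log2 intensities were 8.24, 8.58 and 8.00 in the heterozygous group against 6.00, 6.30 and 6.64 in the null group. All 3 null values lay at least 1.36 below the lowest heterozygous value, and each group stayed within a range of 0.64. The means were 8.27 ± 0.29 (SD, n = 3) and 6.31 ± 0.32 (n = 3), a difference of −1.96 ± 0.25 (SE), or 3.90-fold lower in null. The deposited intensities were 426, 248 and 248 against 109, 158 and 143.

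Paqr7 was the member that was higher in null lenses. Its log2 intensities were 7.42, 8.07 and 7.45 in the heterozygous group against 9.24, 10.33 and 9.40 in the null group. Null array 5 was the highest, and the other 2 null arrays were still at least 1.17 above the highest heterozygous array. The means were 7.65 ± 0.36 (SD, n = 3) and 9.66 ± 0.59 (n = 3), a difference of 2.01 ± 0.32 (SE), or 4.02-fold. Null array 5 is also the array with the most leucocyte signal, as given below. Snhg12, Cnksr1 and Ece1 too were highest of the null group on it. Without null array 5 the Paqr7 difference was 1.67.

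The first Ece1 probe stood at 7.55, 8.16 and 7.65 in the heterozygous group against 6.45, 6.69 and 6.40 in the null group. The null values were tightly grouped, and the closest pair across groups was 0.86 apart, the narrowest gap of the 5 tested probes. The means were 7.79 ± 0.33 (SD, n = 3) and 6.51 ± 0.16 (n = 3), a difference of −1.28 ± 0.23 (SE), or 2.43-fold lower in null. The deposited intensities were 281, 197 and 208 against 134, 192 and 129, so the groups nearly met before normalization. Their means were 229 ± 46 (SD, n = 3) and 151 ± 35 (n = 3). The second Ece1 probe was above background on heterozygous array 1 alone, of all 6 arrays, and was not tested. Its log2 intensities of 4.99, 4.85 and 4.35 in heterozygous and 4.35, 4.59 and 4.30 in null lenses overlapped. At that signal it neither repeats nor contradicts the first probe, so the Ece1 difference rests on 1 probe.

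**Figure D1:**
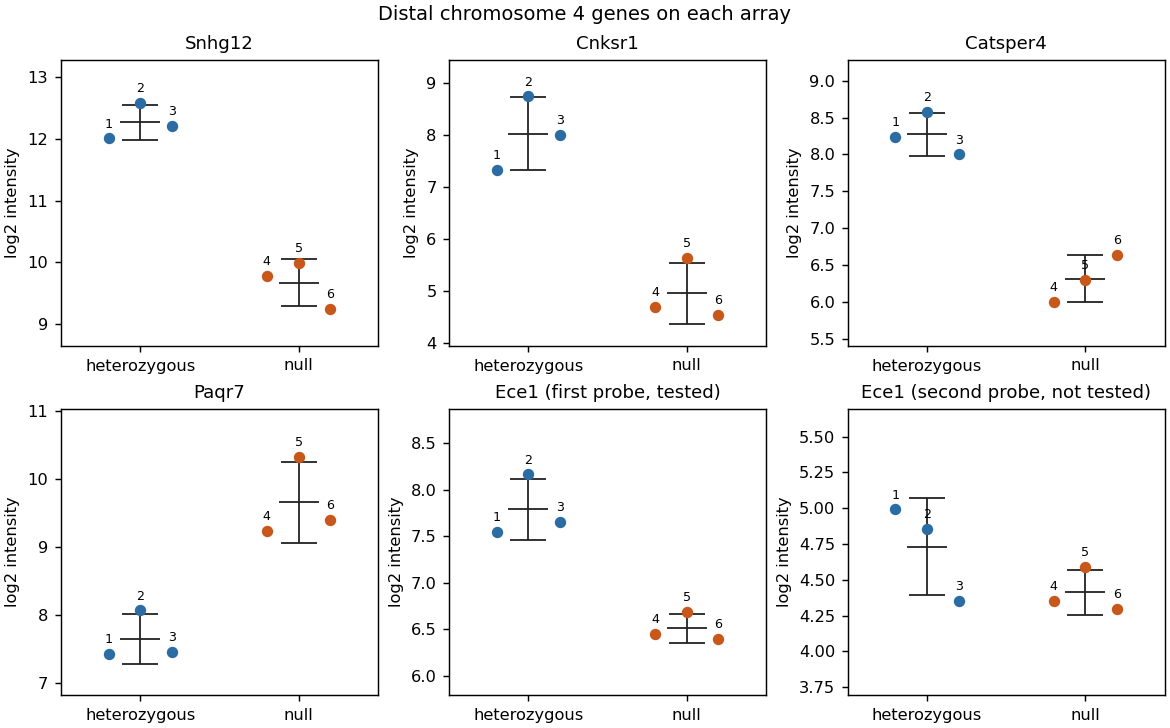
Log2 intensity (vertical axis, a separate range in each panel) of the 6 probes on heterozygous arrays 1 to 3 (blue) and null arrays 4 to 6 (orange), with the array number above each point and black bars for the mean ± SD (n = 3). The groups stand clear of each other for the 5 tested probes and overlap for the second Ece1 probe, and heterozygous array 2 is the highest heterozygous point of each tested probe.

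After normalization the member probes also varied alike within groups. Heterozygous array 2 was the highest of its group for 5 of 5 tested member probes, including Paqr7, while over all tested probes it was the highest for 41.4% and the lowest for 42.9%. Null array 5 was the highest of its group for 4 of 5, against 34.9% over all tested probes. Catsper4 was the exception, with its highest null value on array 6. Before normalization the pattern was not the same, as the deposited intensity was highest on heterozygous array 1 for 4 of 5 (all but Cnksr1) and on null array 5 for 5 of 5. The shared lead of heterozygous array 2 therefore appears in the normalized values and not in the deposited ones. The median deviation of the 5 probes from their group means was −0.24, 0.38 and −0.13 for arrays 1, 2 and 3 of the heterozygous group, and −0.26, 0.32 and −0.26 for arrays 4, 5 and 6 of the null group. Paqr7 shared these ranks within groups although its difference between groups ran the other way.

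Markers of the lens epithelium were also unlike on heterozygous array 2, in the other direction. Their mean log2 intensity over 9 measured genes was 8.98, 6.69 and 8.63 in the heterozygous group (arrays 1, 2 and 3) against 8.56, 8.43 and 8.93 in the null group. None of these 9 genes passed the test, 7 being higher and 2 lower in null, and 1 listed marker, Npnt, was detected on no array. The part of epithelium content in the member values was not tested. With both heterozygous array 2 and null array 5 left out, the differences were −2.61 for Snhg12, −3.05 for Cnksr1, −1.80 for Catsper4, 1.88 for Paqr7 and −1.18 for Ece1, close to those with all arrays.

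The leucocyte and macrophage list leaned strongly upward in null lenses. Of 18 listed genes 12 were measured, 11 were higher and 1 lower, the median difference was 2.93 and 3 passed the test, all upward. The summed intensity of the 17 listed genes on the array, undetected ones included, was 399 to 458 on heterozygous arrays. It was 1626 to 12743 on null arrays, highest on null array 5. The defining markers Itgam and Ptprc were detected on no array. Paqr7, the member that was higher in null, was highest on that same array. Snhg12, Cnksr1 and Ece1, which were lower in null, were also highest of the null group there. The part of leucocyte content in the Paqr7 difference was not tested. Markers of blood vessel endothelium, a cell type in which Ece1 is known to act, were measured for 3 of 15 listed genes, of which 1 was higher and 2 lower and 0 passed. Another 10, Pecam1 and Cdh5 among them, were detected on no array. The summed intensity over all 15 listed genes, undetected ones included, was 598 to 689 in heterozygous and 703 to 823 in null lenses. This sum therefore holds background signal, and of the measured genes only Egfl7 was higher in null. Within the 3 measured, Egfl7 differed by 0.57 ± 0.24 (SE), Tek by −0.65 ± 0.24 and Kdr by −0.34 ± 0.27. Tek and Kdr had the sign of Ece1, and their null means were 4.99 and 4.92. These are close to the lowest signals detected, where a difference is poorly measured. Egfl7, with a null mean of 8.78, had the other sign. The part of vessel cells in the Ece1 difference was not tested. Of 12 measured retinal photoreceptor markers 10 were higher and 2 lower in null, with a median difference of 0.48, and 0 passed. The summed intensity of the 13 listed markers on the array, 1 of them detected nowhere, was 454, 1628 and 1265 on arrays 1 to 3. It was 1849, 1331 and 1496 on arrays 4 to 6. Within the heterozygous group it was highest on array 2, as the normalized member values were. Within the null group it was lowest on array 5, where 4 of the 5 tested member probes were highest. Its part in the member values was not tested. Among iris and pigment cell (6 measured), cornea and conjunctiva (2) and red blood cell markers (3), 0 genes passed.

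The members sit well beyond Tdrd7 in the RefSeq gene order of chromosome 4. Of 578 measured genes of the chromosome, 108 come before Tdrd7 and 296 lie between Tdrd7 and Snhg12, the first member. Snhg12 is followed by 24 measured genes, then by Catsper4 and Cnksr1, which lie side by side on the minus strand with 0 annotated genes between them. After 4 more measured genes comes Paqr7, after 25 more comes Ece1, and 115 measured genes follow. Snhg12, Paqr7 and Ece1 lie on the plus strand, as does Tdrd7. The adjacent genes Catsper4 and Cnksr1 were both lower in null, and the root mean square difference between their profiles over the 6 arrays was 0.77. It was 0.40 between Snhg12 and Cnksr1, which 24 measured genes and Catsper4 separate. This measure is dominated by the group differences, −3.07 for Cnksr1, −2.60 for Snhg12 and −1.96 for Catsper4. Nothing about position is therefore read from it.

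**Figure D2:**
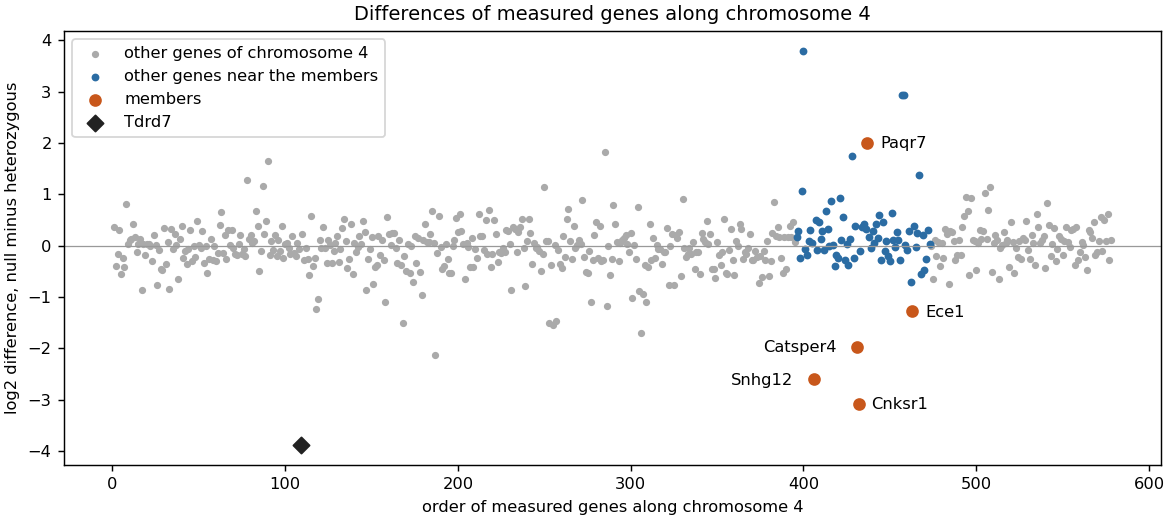
Log2 difference, null minus heterozygous (vertical axis), of the 578 measured genes of chromosome 4 in RefSeq order (horizontal axis, rank and not distance), with Tdrd7 as a black diamond, the 5 members in orange, the 73 other genes near them in blue and the rest in grey. The members lie far to the right of Tdrd7, 4 below 0 and Paqr7 above it, among neighbours that are mostly close to 0.

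The genes directly next to the members are described beside them. The members were picked for differing, so the genes left around them are conditioned on the same contrast, and their counts are no independent test. Of the 8 measured neighbours 0 passed, with differences from −0.70 to 0.50 and adjusted p from 0.392 to 0.976 (limma with Benjamini-Hochberg adjustment over all tested probes), and 1 of the 8, Alpl, had an unadjusted p under 0.05. Around Snhg12, Taf12, a subunit of the general transcription factor TFIID, differed by 0.05 ± 0.24 (SE; 95% interval −0.49 to 0.59), and Trnau1ap, which binds the selenocysteine tRNA, by 0.50 ± 0.23 (−0.0047 to 1.01). On the outer sides of Catsper4 and Cnksr1, Sh3bgrl3 differed by 0.38 ± 0.33 and Zfp593 by −0.10 ± 0.28 (95% interval −0.74 to 0.53).

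Around Paqr7, Stmn1, which destabilises microtubules, differed by 0.33 ± 0.24 (95% interval −0.21 to 0.87) and Mtfr1l by 0.17 ± 0.27 (−0.43 to 0.78). Around Ece1, Alpl, the tissue-nonspecific alkaline phosphatase, differed by −0.70 ± 0.23 (−1.21 to −0.19), the largest of the 8 and of the same sign as Ece1. Hp1bp3, a heterochromatin-binding protein on the other side of Ece1, differed by 0.39 ± 0.32 (−0.33 to 1.11).

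The wider neighbourhood ran from 10 measured genes before Snhg12 to 10 after Ece1 and held 73 other genes. None passed the test, against 0.201% of all 8944 genes measured, although 12 (16.4%) had an unadjusted p under 0.05, against 9.13% of all genes. Groups did not overlap in 19 of the 73 (26.0%), 15 higher and 4 lower in null, against 15.5% of all genes, and the median difference was 0.12 against 0.02. Of these 73 genes 4, Laptm5, Cd52, C1qb and C1qc, are on the leucocyte list. Without them 8 of 69 genes (11.6%) had an unadjusted p under 0.05 and 15 (21.7%) did not overlap, and the median difference was 0.10. Another 70 annotated genes of the neighbourhood were on the array without a tested probe.

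The 6 neighbours with the smallest p were all higher in null. Laptm5, a lysosomal membrane protein of blood cells, differed by 3.79 ± 0.63 (SE; limma adjusted p = 0.0623). Its heterozygous mean of 4.77 was close to the lowest signals detected, and its difference was 2.58 with no background correction. Laptm5 passed in 3 of the alternatives: with array weights (adjusted p = 0.00823), without null array 4 (0.0133) and without arrays 2 and 5 (0.0181). Camk2n1, an inhibitor of the calmodulin kinase CaMKII, differed by 1.38 ± 0.30 (adjusted p = 0.150). The complement genes C1qb and C1qc were above background on 0 of 3 heterozygous arrays, so their null means were set against the detection level. That level, 4.80, is the lowest signal among detected probes, averaged over the heterozygous arrays. The null means lay 5.78-fold and 6.13-fold above it, a comparison that leaves out the spread among null arrays. On null arrays 4, 5 and 6 C1qb stood at 5.67, 9.54 and 6.78, and C1qc at 5.83, 9.68 and 6.73. Neither passed the test between groups (limma adjusted p = 0.262 and 0.267). Sdc3, a cell-surface proteoglycan, and Trnp1, a nuclear protein, differed by 1.07 ± 0.31 and 0.94 ± 0.28 (both with a limma adjusted p of 0.323). The heterozygous mean of Trnp1, 4.90, was also close to the detection level, and its difference was 0.47 with no background correction.

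**Figure D3:**
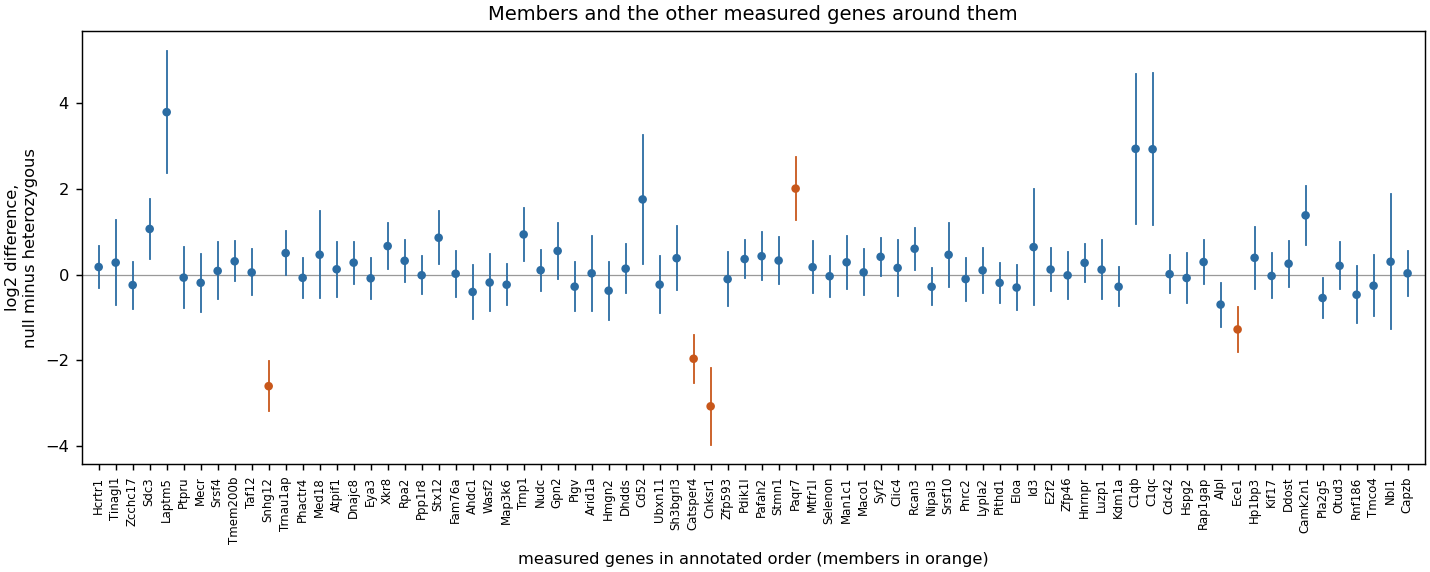
Log2 difference, null minus heterozygous, with its 95% interval (vertical lines), of the members (orange) and of the 73 other measured genes around them (blue) in RefSeq order. Snhg12, Catsper4, Cnksr1 and Ece1 lie below 0 and Paqr7 above, while their direct neighbours lie between −0.70 and 0.50.

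Chromosome 4 as a whole was set beside the other chromosomes with the members and Tdrd7 left out, since these were known to differ. Of its 572 remaining measured genes 12.1% had an unadjusted p under 0.05, against 8.87% of the 8356 genes on other chromosomes, and groups did not overlap in 19.2% against 15.1%. Each of the 19 other chromosomes taken singly had 6.45% to 10.5% of genes with an unadjusted p under 0.05. Their shares without overlap ran from 11.4% to 18.8%, the highest being close to that of chromosome 4. All these are shares of genes that are not independent, and no difference between chromosomes was tested. The shares were uneven along chromosome 4, in stretches marked off after the values were known. Between Tdrd7 and the members' neighbourhood 14.7% of 286 genes had an unadjusted p under 0.05 and 22.4% did not overlap, 20 higher and 44 lower. Before Tdrd7 these shares were 5.56% and 11.1% of 108 genes, and after the neighbourhood 8.57% and 14.3% of 105 genes.

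Only 2 of the 572 passed the test, and both lie between Tdrd7 and the neighbourhood. Acer2, an alkaline ceramidase, fell from 9.02 ± 0.27 to 6.90 ± 0.39 (SD, n = 3; limma adjusted p = 0.0247). Plk3, a polo-like kinase, rose from 6.37 ± 0.48 to 8.18 ± 0.21 (n = 3; limma adjusted p = 0.0487). Both calls depended on the processing. Neither gene passed with arrays scaled to one median, on the series matrix values or with no filter on weak probes. Nor did either pass without heterozygous array 1, null array 5 or null array 6. Both passed with array weights, with another variance model and without arrays 2 and 5. With the members and Tdrd7 included, 6 of 578 genes of chromosome 4 passed (1.04%), and the number ran from 0 to 20 under other ways of processing. With the members and Tdrd7 left out, the share of chromosome 4 genes with an unadjusted p under 0.05 was above that of the other chromosomes in 16 of 16 settings, at 8.74% to 18.5% against 6.47% to 15.2%. The settings share the same arrays, and this comparison was added after the values were seen.

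The labels record the genotype at Tdrd7 and the mixed strain, and nothing on which strain's alleles each sample carried at Snhg12, Cnksr1, Catsper4, Paqr7 or Ece1. Every null sample is null at Tdrd7 by design, and its linked alleles are not recorded. An effect of losing Tdrd7 and an effect of strain alleles linked to it on chromosome 4 therefore cannot be told apart for these 5 genes. The same holds for a strain difference in the bases a probe binds, since probe sequences were not used here.

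Genes that work with each member were described next, from lists written with earlier results of these arrays known. Among 11 other measured host genes of small nucleolar RNAs, 4 were higher and 7 lower in null, the median difference was −0.26 (0.02 over all genes), 3 had an unadjusted p under 0.05 and 0 passed. Taf1d, which encodes a subunit of the RNA polymerase I factor SL1, had log2 intensities of 7.85, 8.09 and 7.80 against 6.53, 7.03 and 6.61 and differed by −1.19 ± 0.22 (SE; limma adjusted p = 0.0879). Snhg5 stood at 7.76, 7.88 and 7.77 against 6.47, 7.09 and 6.78 and differed by −1.02 ± 0.22 (limma adjusted p = 0.150). Neither overlapped between groups, and both passed with array weights (adjusted p = 0.00784 and 0.0143) and without arrays 2 and 5 (0.0246 and 0.0451). Snhg10 differed by −0.67 ± 0.26 (limma adjusted p = 0.498). Taf1d, Snhg5 and Snhg10 lie on other chromosomes, 9, 9 and 12.

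Of 13 other measured Ras pathway and scaffold genes, the group around Cnksr1, 10 were higher and 3 lower in null, with a median of 0.10, 0 with an unadjusted p under 0.05 and 0 passing. The 3 with the smallest p were the Ras-like GTPases Rala (0.50 ± 0.23, SE), Ralb (0.46 ± 0.22) and Nras (0.47 ± 0.26), with limma adjusted p from 0.584 to 0.670.

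Other CatSper and sperm tail genes gave little signal in the lens, as 9 of 19 on the array were detected on no array, Catsper1 among them. Of 5 measured besides Catsper4, 1 was higher and 4 lower, with a median of −0.41, 1 unadjusted p under 0.05 and 0 passing. The other pore subunits Catsper2 and Catsper3 differed by −0.50 ± 0.22 (SE) and −0.41 ± 0.25, and the auxiliary subunit Catsperd by −0.47 ± 0.24, with limma adjusted p from 0.574 to 0.715. The log2 means of these 3 genes in null lenses were 5.27, 4.70 and 4.75, close to the lowest signals detected on the arrays, where a difference is poorly measured.

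Of 7 other measured progestin and adipoQ receptor genes 5 were higher and 2 lower in null, the median was 0.05, 2 had an unadjusted p under 0.05 and 0 passed. Mmd, a member of the same receptor family first known from macrophages, differed by 0.82 ± 0.25 (SE; limma adjusted p = 0.351). Pgrmc2, a membrane progesterone receptor component of another protein family, differed by 0.58 ± 0.22 (limma adjusted p = 0.489), and the adiponectin receptor gene Adipor1 by 0.28 ± 0.30 (0.847).

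In the endothelin system the closest to Ece1 was Ednrb, the endothelin receptor type B. Its log2 intensities were 8.24, 8.45 and 8.34 in the heterozygous group against 7.49, 7.09 and 7.12 in the null group, without overlap. The difference of −1.11 ± 0.21 (SE) did not pass (limma adjusted p = 0.0915), and passed with array weights (0.0151). Of the 5 other measured genes of this list 2 were higher and 3 lower, the median was −0.06, 1 had an unadjusted p under 0.05 and 0 passed. Ide and Mme, which encode the peptidases insulysin and neprilysin, differed by 0.40 ± 0.21 and 0.41 ± 0.43 (limma adjusted p = 0.650 and 0.844), and the sign of Mme turned without heterozygous array 2 (−0.13). The ligand gene Edn1 differed by −0.06 ± 0.28 and Ece2, a related converting enzyme, by −0.18 ± 0.22 (limma adjusted p = 0.976 and 0.872).

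**Figure D4:**
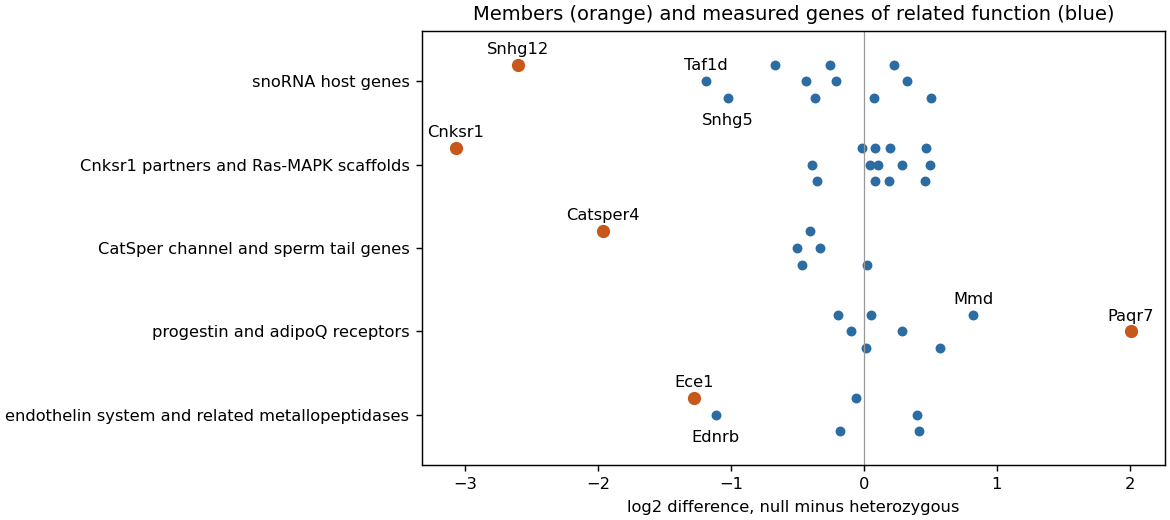
Log2 difference, null minus heterozygous (horizontal axis), of each measured gene in 5 lists of related function, with the members in orange and the other genes in blue, spread vertically only to keep points apart. Each member is the outermost gene of its list, which follows from its choice, and the nearest others are Taf1d and Snhg5 for Snhg12 and Ednrb for Ece1.

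For each member the 3 most alike genes of the whole array were found by the root mean square difference of centred log2 values over the 6 arrays, a measure dominated by the difference between the groups. Snhg12 was closest to Acer2 (0.38), Cnksr1 (0.40) and the class II antigen gene H2-Eb1 of chromosome 17 (0.45). Cnksr1 was closest to H2-Eb1 (0.23), Snhg12 (0.40) and 2410006H16Rik (0.64). H2-Eb1 was lower in null by a difference of −2.81, and a size near those of Snhg12 and Cnksr1 follows from its choice by likeness. Catsper4 was closest to Slc18a2 (0.30), Serpind1 (0.34) and Gp2 (0.35), which encode a monoamine transporter, a thrombin inhibitor and a granule membrane protein, on chromosomes 19, 16 and 7.

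Paqr7 was closest to Lat2 (0.22), Ccl4 (0.26) and Mpeg1 (0.28), known from blood cells as a signalling adaptor, a chemokine and a macrophage pore protein. These differed by 1.73, 1.78 and 1.70, beside 2.01 for Paqr7. Ece1 was closest to Naprt (0.088), an enzyme of NAD synthesis, Itgb1bp1 (0.12), which binds an integrin tail, and Fam219b (0.13), with differences of −1.21, −1.28 and −1.02. None of the 3 nearest genes of Catsper4, Paqr7 or Ece1 lies on chromosome 4. With 3 arrays per group, likeness over 6 arrays describes these arrays alone.

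The signs of the 5 member differences held in all 75 values from 15 other ways of processing, of which 64 stayed within the spread between replicates and 11 moved beyond it. Snhg12 ran from −2.80 to −2.39, Cnksr1 from −3.42 to −1.97, Catsper4 from −2.13 to −1.47, Paqr7 from 1.67 to 2.43 and Ece1 from −1.40 to −0.87. The lowest sizes of Cnksr1 and Catsper4 came with no background correction, that of Ece1 with arrays scaled to one median, and that of Paqr7 without null array 5.

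**Figure D5:**
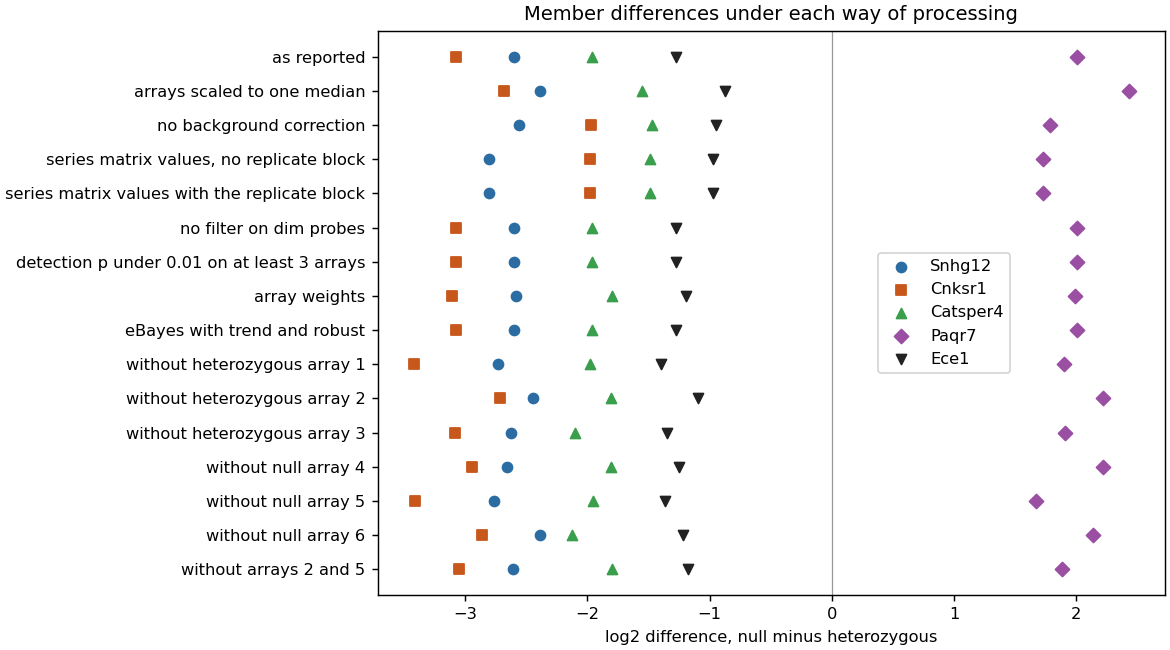
Log2 difference, null minus heterozygous (horizontal axis), of the 5 tested member probes as reported (top line) and under 15 other ways of processing (lines below), with a symbol per gene. Paqr7 stays right of 0 and the other 4 members left of 0 on every line, and Cnksr1 moves the most, from −3.42 to −1.97.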

How the data were processed

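Lens RNA of 3 Tdrd7 heterozygous and 3 Tdrd7 null samples was measured, and samples were grouped by the labels' genotype field. Per the file headers, the deposited raw table gives each probe on each array 1 linear, unnormalized intensity and 1 detection p-value, the latter in steps of 1 over 936, as for ranks against that many negative controls. The authors' deposited series matrix holds another linear intensity per probe, whose rescaling is unknown, and served as an alternative. The raw table's columns show the group only, so arrays are known without their replicate numbers, and software for scanning is not given in the sources used here.

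Intensities were background-corrected, quantile-normalized and log2-transformed with neqc of limma 3.58.1 in R 4.3.3 (offset 16). Tests covered the 14902 of 45281 probes whose detection p was under 0.05 on 3 or more of the 6 arrays. Null was set against heterozygous by lmFit and eBayes (two-sided), p-values were adjusted after Benjamini-Hochberg over these probes, and the threshold was 0.05. The offset pulls differences of weak probes toward 0. Symbols came from the platform annotation (34885 probes with 1 gene, 18 with several, 10378 with none, none named from several), and a gene was read by its tested probe with the highest mean. Gene order came from RefSeq (GRCm38.p6) by gene ID and placed 8934 of 8944 measured genes. The members, gene lists and tests were chosen with earlier results of these data known. Named genes were every member probe, Tdrd7, the measured gene on each side of each member, the 6 neighbours with the smallest p, the 3 genes with the smallest p per list and the 3 nearest profiles per member. Acer2, Plk3, Edn1 and Ece2 were named after their values were seen. The fit was tested on simulated data of 14902 probes for this contrast, where it recovered 35% of 100 probes shifted by a log2 difference of 1 and 97% of 100 shifted by 2, with 11 false among 143 calls. The number of arrays limits the precision. Alternatives changed the scaling, background correction, source of values, probe filter, array weights, variance model and arrays included.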

Additional observations from a re-analysis of the deposited data

How the results depend on the processing

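Over the whole array 26 probes passed the threshold, and this number depended strongly on the processing. It was 3 with arrays scaled to one median (2 higher, 1 lower), 9 with no background correction (4 higher, 5 lower), 261 with array weights and 112 without arrays 2 and 5. It was 0 with no filter on weak probes (2759 at an unadjusted p under 0.05) and 0 on the series matrix values (1058 at an unadjusted p under 0.05), and it ran from 2 to 29 when 1 array was left out. Scaling to one median moved the median difference of all probes from 0.01 to 0.28. With the replicate block, possible only on the series matrix values, it was also 0 (1307 at an unadjusted p under 0.05). Deviations of equally numbered samples correlated at −0.01, 0.25 and 0.57 and 4 of 6 samples correlated best with their own number. Those of unlike numbers correlated at −0.38 to 0.07. Whether equal numbers mean paired samples is not known. The raw columns carry no replicate number, so the reported fit had no block. Of the other genes near the members 0 passed, but 2 did with array weights (Camk2n1 and Laptm5), 3 without arrays 2 and 5 (C1qb, C1qc and Laptm5) and 0 to 1 with 1 array left out (Laptm5, without null array 4). The chromosome 4 count of 6 genes, looked at after its values were seen, was 1 after median scaling, 0 from series matrix values and 0 with no filter. It was 20 with array weights, 15 without arrays 2 and 5 and 1 without null array 6. Of 433 values for 29 other named genes, 413 kept direction and side of the threshold, 11 newly passed and 9 reversed. None of the 29 passed in the reported fit, so no call could be lost. Acer2 and Plk3, which did pass, are not among them. Single arrays left out gave Mme −0.13 to 0.83 (below 0 without heterozygous array 2), Mtfr1l −0.0038 to 0.42 (below 0 without heterozygous array 1), Taf12 −0.076 to 0.25 (below 0 without heterozygous arrays 1 or 3 or null array 5) and Zfp593 −0.32 to 0.11 (above 0 without heterozygous array 1 or null array 5). Mme was also −0.039 without arrays 2 and 5, and Zfp593 was 0.028 with arrays scaled to one median. None of these passed the test, and the cause was not tested. Signal near background limits Cnksr1 in null lenses and the second Ece1 probe.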
